A study of Rattus norvegicus with 8 samples.

Results

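The genes described here are 10 enzymes that oxidise or reduce aldehydes, 6 aldehyde dehydrogenases (Aldh3a1, Aldh3a2, Aldh1a1, Aldh1a2, Aldh2 and Aldh1l1) and 4 aldo-keto reductases (Akr7a2, Akr7a3, Akr1b8 and Akr1b10). They were chosen by name: every spot that is not a control spot and carries a member's gene name was taken, which gave 13 probes for the 10 genes out of 36174 names on the array. RNA of whole liver from male Wistar rats was hybridised to 1-colour Agilent arrays. The 4 STL rats (numbered 5 to 8) received butyrate-containing structured lipids, called STL, at 1.65 g/kg body weight daily by gavage, and the 4 control rats (numbered 1 to 4) received maltodextrin at 3.0 g/kg body weight, an isocaloric dose. From week 2 of the treatment both groups went through the resistant hepatocyte protocol of chemical hepatocarcinogenesis, in which initiated hepatocytes grow out into foci, and livers were taken at week 8. The controls are therefore livers under carcinogenesis, not healthy livers, and the age of the rats is not given beyond age-matching. The comparison asks how transcript levels differ in such livers when the lipids are given.

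Aldehydes arise in liver from lipid peroxidation, ethanol, retinol, biogenic amines and dietary or chemical toxins, and they react with proteins and DNA unless they are removed. Aldehyde dehydrogenases use NAD or NADP to oxidise them to acids, while aldo-keto reductases use NADPH to reduce them to alcohols. In rat liver Aldh3a1 is known as the tumour-associated aldehyde dehydrogenase, scarce in normal liver and induced through the aryl hydrocarbon receptor (AhR), and Akr7a3, the aflatoxin aldehyde reductase, is known as an enzyme induced by antioxidants. Aldh2 in mitochondria and Aldh3a2 in the endoplasmic reticulum are enzymes of the normal hepatocyte.

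Values are normalised log2 signals: log2 of the processed signal of a probe minus the 75th percentile of its array, so that 0 is the level of that percentile. Probes differ in how well they bind, so a probe's level was set only against itself on other arrays, and a gap between 2 probes was read only for how it varied between arrays. The 75th percentile of the processed signal was between 304 and 605 per array, and 54.2% to 62.8% of probes were well above background. Control 1 and control 2 differed by 1.11 times the noise between spots of 1 probe, where the other 27 pairs of arrays differed by 2.25 to 7.25 times that noise. They differed by about the sampling noise and were counted as 1 sample, so that 4 STL samples stand against 3 control samples. The hepatocyte markers Alb and Ttr were well above background on all 8 arrays, with means of 8.95 and 9.66 in STL livers and 8.54 and 9.21 in control livers, and all 10 hepatocyte markers were tested. In whole tissue fewer cells of a type and less RNA per cell cannot be told apart.

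The probes that carry the findings are shown first, 5′ to 3′. Aldh3a1 was measured by 2 probes that overlap in 51 of 60 bases. One is filed under the gene's name, and the other under a transcript identifier without a symbol. The end of each is given, with the AATAAA signal that precedes a poly(A) tail in capitals for the first.
Aldh3a1, named probe, bases 29 to 58: ctgggcacagaaatcAATAAAagcctctga
Aldh3a1, unnamed probe, last 30 bases: ctgtttgctgggcacagaaatcaataaaag
The named probe lies at chr10:47374814-47374873 and the other at chr10:47374805-47374864 in the rn4 build of the file headers, a shift of 9 bases. Aldh3a2 lies on the same chromosome at chr10:47400749-47400808, with 25.9 kb between its probe and the named Aldh3a1 probe.
Akr1b8 has a probe whose mapped ends lie further apart than its length, called the junction probe, and an end probe that holds AATAAA (in capitals). The junction probe is given whole, beside a probe of a chromosome 6 transcript without a symbol that matches it in 45 of 48 compared bases, with the 3 differing bases in capitals. The last 3 probes have a reading frame that is open over the probe, and stand for genes that differed less or in a smaller range.
Akr1b8, junction probe: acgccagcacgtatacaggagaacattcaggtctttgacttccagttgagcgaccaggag
chromosome 6 probe: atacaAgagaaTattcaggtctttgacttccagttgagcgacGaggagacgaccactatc
Akr1b8, end probe, bases 24 to 53: gtatgcagataaaatAATAAAgagtcatta
Akr7a2: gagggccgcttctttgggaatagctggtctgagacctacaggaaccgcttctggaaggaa
Aldh1l1: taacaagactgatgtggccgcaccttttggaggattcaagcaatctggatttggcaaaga
Aldh2, second probe, ending in the stop codon: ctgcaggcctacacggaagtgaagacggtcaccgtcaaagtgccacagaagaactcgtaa
The Akr1b8 probes lie at chr4:61724364-61725032 and chr4:61727072-61727131, the Akr7a2 probe at chr5:158104829-158105391, the second Aldh2 probe at chr12:36114825-36116118 and the chromosome 6 probe at chr6:80601402-80601461. For the Aldh1l1 probe the files give no position. No annotation of rn4 was used here, so that exons and untranslated parts are not assigned beyond these features of the sequences.

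None of the 10 genes passed the threshold of 0.05 on the adjusted p (limma with Benjamini-Hochberg adjustment over 21899 names tested), against 0.00457% of all names, that is 1 name, Cish, an inhibitor of cytokine signalling. Of the 10 genes 8 were tested, and Aldh1a2 and Akr1b10 were too dim for the filter, which needs 4 of the 8 arrays to be well above background. Of the 8 tested, 4 were lower and 4 higher in STL livers, with a median log2 difference of -0.19 beside 0.06 over all names, of which 42% were lower. Under quantile normalization Aldh2 and Akr7a2 turned to lower, so that 6 of 8 were. The unadjusted limma p was under 0.05 for 4 of the 8, against 18.9% of all names: 3 were lower, against 7.37% of all names, and 1 was higher, against 11.6%. A difference of at least 2-fold was seen in 3 genes, against 4.03% of all names, and all 3 were lower, against 2.34%. Over all names 2530 of the 4144 with an unadjusted p under 0.05 were higher in STL, and with another scaling this split moved, to 1647 of 3617 with median scaling and 4056 of 5364 with normexp background correction. The groups did not overlap in 3 of the 8, against 16.8% of all names: Aldh3a1 and Aldh1l1 were lower in every STL liver (5.62% of all names) and Aldh3a2 was higher in every STL liver (11.2% of all names). With array weights by REML, a setting chosen after seeing the data, Aldh3a1, Aldh3a2 and Aldh1l1 passed the adjusted threshold, as did 1575 of all names.

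**Figure D1:**
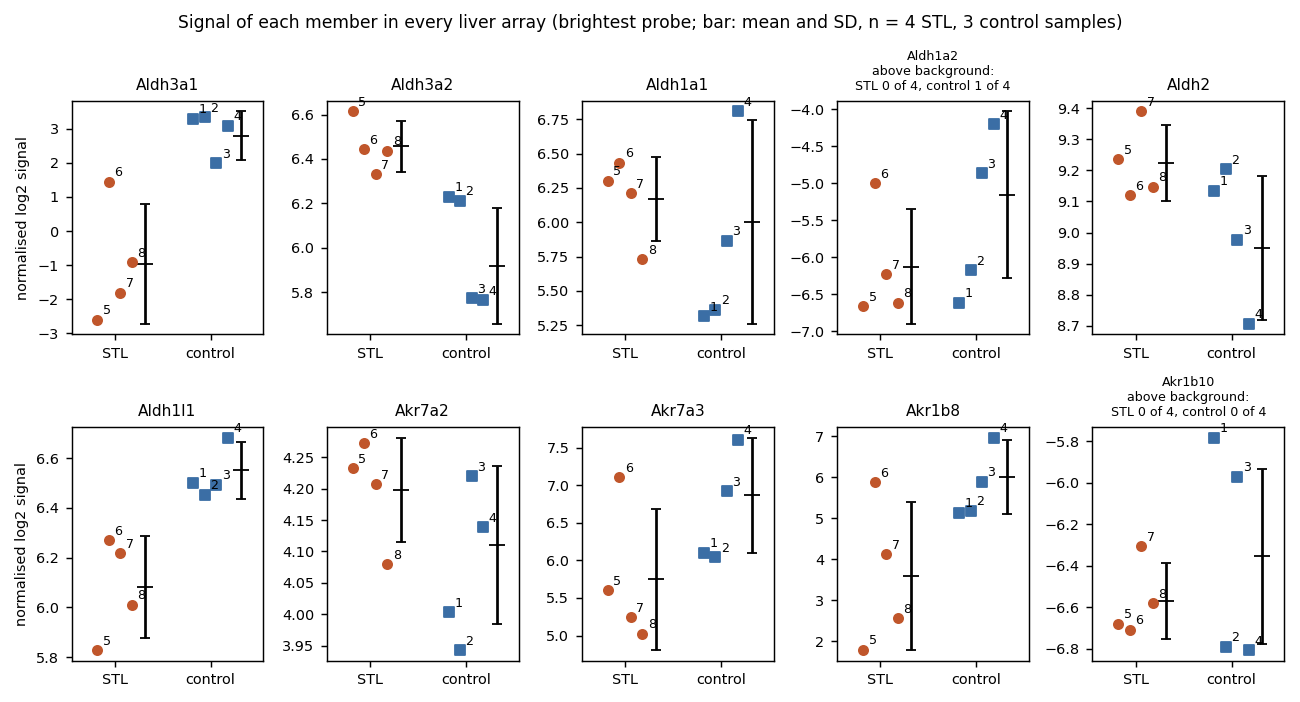
Normalised log2 signal (vertical axis, own scale per gene) of the brightest probe of each of the 10 genes on each array, STL rats 5 to 8 in orange and control rats 1 to 4 in blue, with the mean and SD over 4 STL and 3 control samples (control 1 and 2 averaged). Aldh3a1 and Aldh1l1 lie lower and Aldh3a2 higher in all STL livers, while Akr1b8 and Akr7a3 overlap because of STL 6, and Aldh1a2 and Akr1b10 sit near background.

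Aldh3a1, the soluble enzyme that oxidises aromatic and medium-chain aldehydes, had the largest difference of the 10. Its named probe read -2.61, 1.45, -1.81 and -0.92 in STL 5, 6, 7 and 8, against 3.30, 3.35, 2.0 and 3.10 in control 1, 2, 3 and 4. All STL livers were below all controls, and STL 6 was far above the other STL livers and close to control 3. The means were -0.97 ± 1.76 (SD, n = 4) in STL livers and 2.81 ± 0.71 (SD, n = 3) in control livers, so that Aldh3a1 was 13.7-fold lower (log2 difference -3.78, SE 0.84, 95% interval -5.68 to -1.87). The limma adjusted p (Benjamini-Hochberg) was 0.164, with an unadjusted p of 0.00161 at rank 210 of 21899, and by size the difference was the 7th from the lowest of all names. Without STL 6 the difference was -4.59 with a limma adjusted p (Benjamini-Hochberg) of 0.0201, a setting in which 45 of all names passed the threshold. Since STL 6 was the STL liver nearest to the controls, leaving it out had to widen the difference and narrow the STL spread.

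The size of that difference depended on the probe. The overlapping unnamed probe read 0.35, 1.81, 0.46 and 0.54 in STL 5 to 8, against 3.31, 3.36, 2.15 and 3.16 in control 1 to 4. It too was lower in every STL liver, by 4.27-fold (log2 difference -2.09, SE 0.40, 95% interval -3.0 to -1.19), with a limma adjusted p (Benjamini-Hochberg) of 0.164, and 0.0312 without STL 6. The gap between both, named minus unnamed, was -2.96, -0.35, -2.27 and -1.47 in STL 5 to 8, against -0.16 to -0.011 in the controls. It was wider in every STL liver than in any control, and narrowest among them in STL 6. Each probe has 10 spots per array, whose SD within an array was at most 0.225 for the named and 0.086 for the unnamed probe, smaller than the spread of the gap over the STL livers. The 2 probes differ only in the 9 bases at each end, and what they detect apart from each other was not tested.

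Aldh3a2, the fatty aldehyde dehydrogenase of the endoplasmic reticulum that handles long-chain aldehydes from sphingolipid and plasmalogen breakdown, ran the other way. It read 6.61, 6.44, 6.33 and 6.44 in STL 5 to 8, against 6.23, 6.21, 5.77 and 5.76 in control 1 to 4. The lowest STL liver was above the highest control, by a small margin. The means were 6.46 ± 0.12 (SD, n = 4) in STL livers and 5.92 ± 0.26 (SD, n = 3) in control livers, so that Aldh3a2 was 1.45-fold higher (log2 difference 0.54, SE 0.15, 95% interval 0.20 to 0.87). The limma adjusted p (Benjamini-Hochberg) was 0.178.

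These 2 genes lie next to each other on chromosome 10, and their differences were compared, a pair chosen after the values were seen. The Aldh3a1 difference minus the Aldh3a2 difference was -4.32 on the log2 scale, and the gap between both probes was -9.22 to -4.99 in STL livers and -3.78 to -2.67 in control livers. An exact permutation test over the 7 samples, two-sided, gave p = 0.0571, the smallest that 35 regroupings allow. After adjustment over 3 such pairs, all chosen after the values were seen, the permutation p was 0.0857. Since Aldh3a1 was lower and Aldh3a2 higher in every STL liver, their gap could not overlap between the groups. The test of this pair had to give that p, and it adds nothing to the 2 differences. In the second pair, Akr7a3 and Akr7a2 on chromosome 5 with 41.9 kb between their probes, the same quantity was -1.21 (exact permutation p = 0.171). For the last pair, Aldh1a7 and Aldh1a1 on chromosome 1 with 49.6 kb between their probes, it was -2.75 (exact permutation p = 0.0571, adjusted 0.0857).

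Among the ALDH1 genes Aldh1a1, the main retinal dehydrogenase of rat liver cytosol, showed no difference beyond the spread between livers. It read 6.30, 6.44, 6.21 and 5.73 in STL 5 to 8, against 5.31, 5.36, 5.87 and 6.81 in control 1 to 4. The groups overlapped, since control 4 was above every STL liver and control 1 and 2 were below every one. The log2 difference was 0.17 (SE 0.32, 95% interval -0.56 to 0.90, limma adjusted p 0.796), and it was -0.17 without control 1 and 2 and 0.57 without control 4. Aldh1a2, the retinal dehydrogenase of stellate and mesothelial cells, was well above background on 0 of 4 STL and 1 of 4 control arrays. It read -6.66, -5.00, -6.23 and -6.61 in STL 5 to 8, against -6.61, -6.17, -4.86 and -4.20 in control 1 to 4. The groups overlapped, and since nearly all arrays were at background no fold is given. Stellate markers stood at mean centred log2 values of -0.34 to -0.01 in STL samples and -0.01 to 0.54 in control samples, with 7 of 9 tested lower. Of these 7, Lrat and Rgs5 had log2 differences of only -0.0006 and -0.018. The 3 with an unadjusted limma p under 0.05 were the collagen genes Col1a1, Col1a2 and Col3a1. Mesothelial markers stood at -0.84 to -0.26 in STL samples and -0.03 to 1.40 in control samples, with 3 of 4 tested lower and a median log2 difference of -1.45 (-0.28 with normexp background correction). Of these 4, Upk1b, a uroplakin, was well above background on 0 of 4 STL and 4 of 4 control arrays. Gpm6a, which had the lowest difference, was so on 1 of 4 STL and 4 of 4 control arrays. Both therefore passed the filter through the control arrays. Of the 2 mesothelial markers well above background on all 8 arrays, 1 was lower and 1 higher, with a median of -0.096. The part of both cell types in the Aldh1a2 signal was not tested.

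Aldh1l1, the folate enzyme that oxidises 10-formyltetrahydrofolate, read 5.83, 6.27, 6.22 and 6.01 in STL 5 to 8, against 6.50, 6.45, 6.49 and 6.68 in control 1 to 4. Every STL liver was below every control. The means were 6.08 ± 0.20 (SD, n = 4) in STL livers and 6.55 ± 0.11 (SD, n = 3) in control livers, so that Aldh1l1 was 1.38-fold lower (log2 difference -0.47, SE 0.14, 95% interval -0.79 to -0.15), with a limma adjusted p (Benjamini-Hochberg) of 0.179. Of 15 other folate genes tested 6 were higher, 9 lower (7 lower with normexp) and 0 called. The unadjusted limma p was under 0.05 for 8, 4 in each direction, against 18.9% of all names. Of the 4 lower, Folr1 was well above background on 0 of 4 STL arrays and Mthfd1l on 2 of 4, and both on 4 of 4 control arrays. Of the 4 higher, Fpgs was so on 3 of 4 STL and 2 of 4 control arrays. With all 8 arrays needed, 12 genes were left, 7 lower and 5 higher. Shmt1 and Shmt2, the serine hydroxymethyltransferases of cytosol and mitochondria, had log2 differences of 0.53 and 0.41 with means of 4.67 and 4.16 in STL livers and 4.15 and 3.75 in control livers. Neither passed the threshold (limma adjusted p, Benjamini-Hochberg, 0.173 and 0.179), and their sign was opposite to that of Aldh1l1.

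Aldh2, the mitochondrial enzyme that oxidises acetaldehyde and lipid peroxidation aldehydes, has 2 probes, and the brighter one read 9.24, 9.12, 9.39 and 9.15 in STL 5 to 8, against 9.13, 9.20, 8.98 and 8.71 in control 1 to 4. The groups overlapped, and control 4 was the lowest. The log2 difference was 0.27 (SE 0.16, 95% interval -0.08 to 0.63, limma adjusted p 0.361), and the second probe gave 0.18. Under quantile normalization the brighter probe gave -0.16.

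In the aldo-keto reductase families the AKR7 pair differed in spread. Akr7a2, which reduces succinic semialdehyde, read 4.23, 4.27, 4.21 and 4.08 in STL 5 to 8, against 4.00, 3.94, 4.22 and 4.14 in control 1 to 4. The groups overlapped and lay close together. Its log2 difference was 0.09 (SE 0.11, 95% interval -0.16 to 0.33, limma adjusted p 0.668), and -0.037 under quantile normalization. Akr7a3, which reduces aflatoxin dialdehyde, read 5.60, 7.11, 5.25 and 5.02 in STL 5 to 8, against 6.10, 6.04, 6.92 and 7.60 in control 1 to 4. STL 6 was above 3 of the 4 control arrays, and the other STL livers were below all of them. The mean was 2.17-fold lower in STL livers (log2 difference -1.12, SE 0.52, 95% interval -2.30 to 0.06), with a limma adjusted p (Benjamini-Hochberg) of 0.281.

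Akr1b8, which in mouse reduces retinal and aliphatic aldehydes and is induced by fibroblast growth factor, read 1.79, 5.88, 4.12 and 2.56 in STL 5 to 8 at its brighter probe, against 5.13, 5.18, 5.89 and 6.97 in control 1 to 4. STL 6 lay among the controls, and STL 5, 7 and 8 lay below them all. The means were 3.59 ± 1.81 (SD, n = 4) in STL livers and 6.0 ± 0.91 (SD, n = 3) in control livers, so that Akr1b8 was 5.34-fold lower (log2 difference -2.42, SE 0.88, 95% interval -4.43 to -0.41). The limma adjusted p (Benjamini-Hochberg) was 0.212. The junction probe gave a log2 difference of -2.43, and the gap between both probes was 1.63 to 1.96 over the 8 arrays, so that they followed the same course. The SD between the 10 spots of a probe on an array was 0.036 to 0.080 for the brighter one. The chromosome 6 probe that matches the junction probe in 45 of 48 bases gave -2.36, and whether it reads Akr1b8 was not tested.

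**Figure D2:**
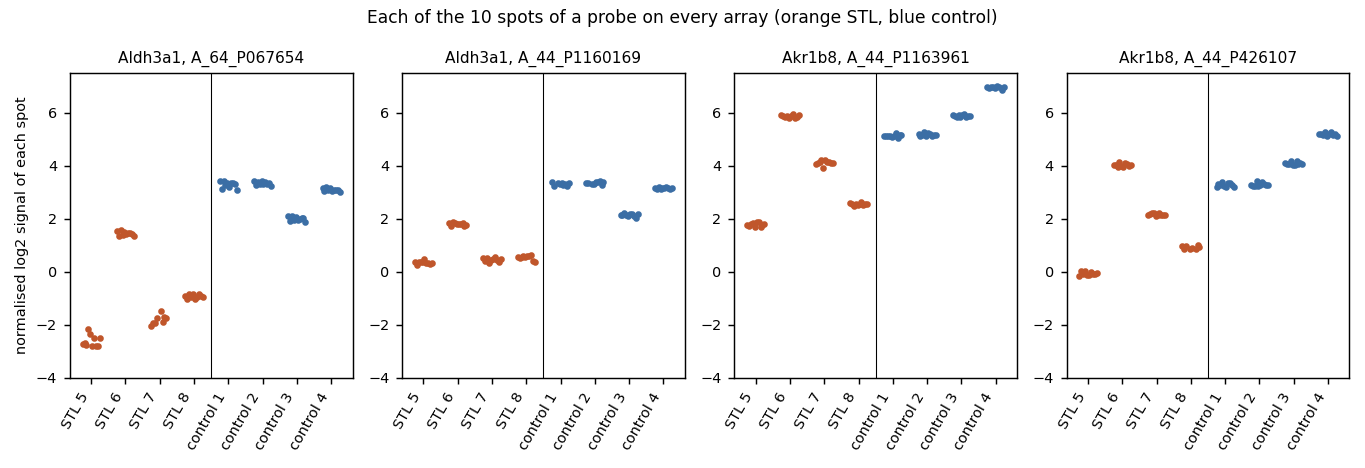
Each of the 10 spots of the 2 Aldh3a1 probes and the 2 Akr1b8 probes on every array, as normalised log2 signal, STL arrays in orange to the left and control arrays in blue to the right. The spots of an array lie close together, the 2 Akr1b8 probes show the same order of arrays, and the named Aldh3a1 probe is lower than the overlapping one in STL 5, 7 and 8, and by less in STL 6.

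Akr1b10, the aldose reductase-like enzyme whose human counterpart reduces retinal and aliphatic aldehydes, had 2 probes of the same sequence, and both were above background on 0 of 8 arrays. Another probe at chr4:61771810-61771869, filed under the name LOC100910708 but with an accession of Akr1b10 in the files, was above background on 2 of 4 STL and 4 of 4 control arrays. It had a mean of -4.06 ± 0.31 (SD, n = 4) in STL livers and -3.33 ± 0.53 (SD, n = 3) in control livers, with a log2 difference of -0.74 (SE 0.30) and groups that overlapped. With normexp background correction the difference was -0.023. Its limma adjusted p (Benjamini-Hochberg) was 0.246, and whether it reads Akr1b10 was not tested.

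The members varied in spread as well as in level. The SD over the STL livers was between 0.083 (Akr7a2) and 1.81 (Akr1b8), while the median SD over all names was 0.216 in STL livers and 0.223 in control livers. Akr1b8, Aldh3a1 and Akr7a3 had the widest spread in STL livers, and in all 3 the highest STL liver was STL 6. This was not particular to them, since STL 6 was also the highest STL liver for Aldh1l1, Akr7a2 and Aldh1a1. For Aldh3a2 and Aldh2 it was not. How often STL 6 was the highest over all names was not counted. The smallest root mean square difference between centred profiles over the 7 samples was 0.20, for Aldh3a2 and Aldh2, and the largest was 2.46, for Aldh3a1 and Aldh3a2. Akr1b8 was nearest to Akr7a3 among the members, at 1.05, and Aldh3a1 nearest to Akr1b8, at 1.14.

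Marker lists were set beside Aldh3a1, Akr1b8 and Akr7a3. Some of them, among them that of preneoplastic foci, also had STL 6 highest among the STL livers. All 5 genes of that list were lower in STL livers, beside 42% of all names, and 4 were with REML weights or without control 4. Of the 5, 3 had an unadjusted limma p under 0.05, against 7.37% of all names in that direction, and 0 passed the adjusted threshold. Nqo1 and Tpd52 had log2 differences of only -0.26 and -0.097. The mean centred log2 value of the list was -1.34, 0.56, -0.66 and -1.17 in STL 5 to 8 and 0.32, 0.58 and 1.71 in control 1+2, 3 and 4, so that STL 6 again lay among the controls. Gstp1, the glutathione transferase used to mark foci in rat liver, had a log2 difference of -3.31 (SE 0.91), with 1.39, 5.29, 2.67 and 1.53 in STL 5 to 8 and 4.96, 6.05 and 7.08 in the controls. Anxa2, a membrane-binding annexin, had -1.75 (SE 0.38). Without STL 6 Gstp1 had -4.17 and passed the threshold (limma adjusted p, Benjamini-Hochberg, 0.0419), as did 45 of all names. Cholangiocyte markers, of the bile duct, had STL 6 among the controls as well. Their mean centred log2 value was -0.47, 0.28, -0.35 and -1.18 in STL 5 to 8 and 0.13, 0.13 and 1.47 in control 1+2, 3 and 4, with 7 of 8 lower, 3 of them with an unadjusted limma p under 0.05, and 0 called. The median log2 difference of this list was -1.09, but -0.55 with normexp background correction and -0.53 without control 4. Among its genes Krt7 was well above background on 2 of 4 STL and 4 of 4 control arrays. Markers of mast cells and granulocytes had -1.50 to -0.26 in STL livers and 0.64 to 1.22 in controls. Here STL 6, at -0.51, was below STL 7 and STL 8. Of these markers 4 of 4 tested were lower, 2 of them with an unadjusted limma p under 0.05, and 0 called. The other 4 listed were too dim. The median log2 difference of those tested was -1.51, but -0.56 with normexp background correction. It was -0.80 for the 3 well above background on all 8 arrays. Cpa3, the gene with the lowest difference among them, was well above background on 1 of 4 STL and 4 of 4 control arrays. Markers of cycling cells had -1.11 to -0.35 in STL livers and -0.66 to 1.73 in controls. Of these 5 of 5 tested were lower, all 5 with an unadjusted limma p under 0.05, and 0 were called. Control 1+2, at -0.66, was below STL 6 and STL 8 in this list, whereas it was the highest sample for Aldh3a1. The part of these 4 marker lists in the Aldh3a1, Akr1b8 and Akr7a3 values was not tested. Hepatocyte markers had 0.0032 to 0.40 in STL livers and -0.47 to 0.11 in controls, with 9 of 10 higher but 3 of 10 under quantile normalization.

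**Figure D3:**
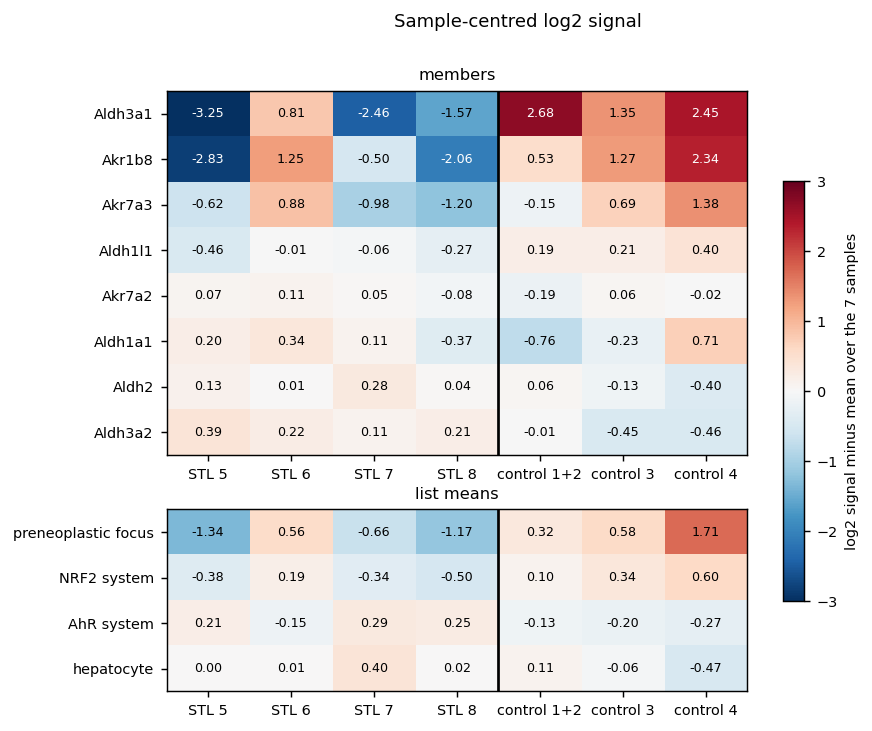
Normalised log2 signal minus its mean over the 7 samples for the 8 tested genes (top) and the mean of the same over 4 gene lists (bottom), with STL samples to the left of the line and control samples to the right; red is above and blue below the gene's mean. STL 6 is above the mean for Aldh3a1, Akr1b8, Akr7a3, the preneoplastic markers and the NRF2 list, unlike the other STL livers.

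Of the other aldehyde dehydrogenases 13 were tested, with 7 higher, 6 lower and 0 called, and a median log2 difference of 0.05 (-0.043 under quantile normalization). The unadjusted limma p was under 0.05 for 4, of which 3 were lower. Aldh5a1, the succinic semialdehyde dehydrogenase, had a log2 difference of -0.51 (SE 0.15), with means of 0.86 in STL livers and 1.37 in control livers and groups that did not overlap. Aldh1a7, a close relative of Aldh1a1 in rodents, had -2.58 (SE 0.86), with -4.23, -0.74, -2.95 and -3.55 in STL 5 to 8 and -1.35, -0.77 and 1.26 in the controls, where STL 6 again lay among them. Of the other aldo-keto reductases 14 were tested, with 9 higher, 5 lower (7 and 7 under quantile normalization) and 0 called, and a median of 0.19. The unadjusted limma p was under 0.05 for 6 of them. Akr1c2 had a log2 difference of 1.39 (SE 0.40), with means of 3.63 ± 0.65 (SD, n = 4) in STL livers and 2.23 ± 0.71 (SD, n = 3) in control livers, and Akr1cl had -0.49 (SE 0.13). Members of the AKR1C subfamily are close in sequence, and how far their probes read each other was not tested. The limma adjusted p (Benjamini-Hochberg) of these 4 genes was between 0.174 and 0.195.

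**Figure D4:**
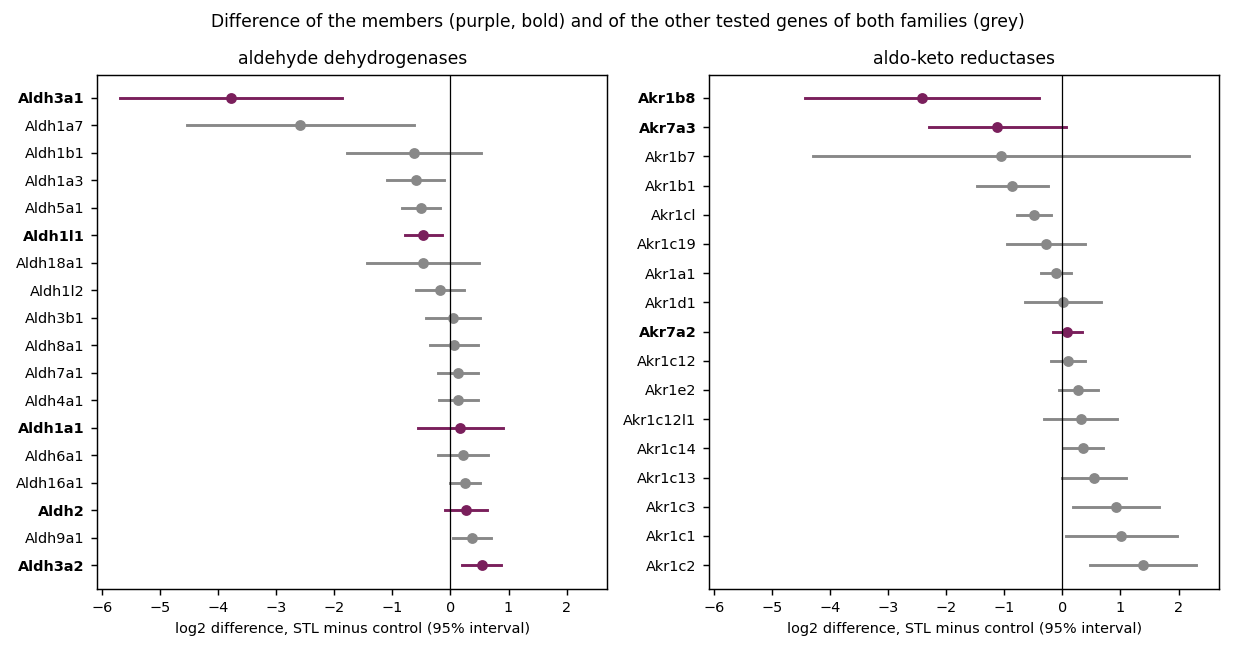
Log2 difference, STL minus control, with its 95% interval for the tested aldehyde dehydrogenases (left) and aldo-keto reductases (right); the 8 genes of the report are in purple and bold, the other tested genes of both families in grey. Aldh3a1 and Aldh1a7 lie furthest left among the dehydrogenases and Akr1b8 and Akr7a3 among the reductases, while Akr1c2 lies furthest right.

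The regulators known for these enzymes were set beside them: NRF2 (Nfe2l2) is the antioxidant-response transcription factor that KEAP1 holds in check. Nfe2l2 had a log2 difference of -0.08 and Keap1 of -0.08, with groups that overlapped. Of 26 genes of the NRF2 system 25 were lower in STL livers, 10 of these with an unadjusted limma p under 0.05, and 0 were called, beside 42% lower over all names, with a median of -0.34. The count was 22 to 25 over the other settings. The gene Nqo1 also stands in the lists of AhR targets and preneoplastic markers. Pgd, an NADPH-making enzyme, had -1.0 (SE 0.20), with 0.46, 0.88, 0.25 and 0.20 in STL 5 to 8 and 1.08, 1.56 and 1.69 in the controls, which did not overlap. Slc7a11, the cystine transporter, had -3.60 (SE 0.82, limma adjusted p 0.168). Without STL 6 it had -4.46 and passed the threshold (limma adjusted p 0.00392), as did 45 of all names. With the mean over its probes it had -1.87 and did not pass. Pgd passed without control 1 and 2 (-1.18, limma adjusted p 0.0485), as did 216 of all names. The NRF2 list had a mean centred log2 value of -0.38, 0.19, -0.34 and -0.50 in STL 5 to 8 and 0.10, 0.34 and 0.60 in the controls.

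Ahr, the gene of the aryl hydrocarbon receptor, had a log2 difference of -0.12 (SE 0.32) that turned to 0.11 with normexp background correction. Of 9 genes of the AhR system tested 5 were higher, 4 lower and 0 called, and 2 had an unadjusted limma p under 0.05, against 18.9% of all names. With normexp 7 were higher and 2 lower, and with the mean over probes 4 were higher and 5 lower. The median log2 difference of the list was 0.37, but -0.044 with the mean over probes. Cyp1a1, the classic AhR target, had 1.52 (SE 0.64) and read 0.98, -1.94, 0.28 and 0.92 in STL 5 to 8, against -1.83, -1.27 and -1.27 in the controls. STL 5, 7 and 8 were above all controls, and STL 6 was below them. Tiparp, another target, had 0.37 (SE 0.15). Neither passed the threshold (limma adjusted p, Benjamini-Hochberg, 0.249 for Cyp1a1 and 0.245 for Tiparp), and both had the opposite sign to Aldh3a1. Without STL 6 Cyp1a1 had 2.18 and passed (limma adjusted p, Benjamini-Hochberg, 0.0235), as did 45 of all names.

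Of 14 genes that make or use lipid aldehydes beside Aldh3a2, 11 were higher, 3 lower and 0 called, with a median of 0.29, and 6 had an unadjusted limma p under 0.05. Cyp4a1 and Cyp4a2, the fatty acid omega-hydroxylases, had log2 differences of 1.18 (SE 0.25) and 2.48 (SE 0.68), with means of 5.67 and 8.47 in STL livers and 4.49 and 5.99 in control livers, and in neither did the groups overlap. Cyp4a1 passed the threshold without control 1 and 2 (1.53, limma adjusted p, Benjamini-Hochberg, 0.00824), as did 216 of all names. Cyp4a2 had 1.46 without control 4. Of 15 retinoid genes beside the ALDH1A enzymes 10 were higher, 5 lower and 0 called (2 with an unadjusted limma p under 0.05), and the carotene oxygenase gene Bco1 had 1.16 (SE 0.33). Stra6, the receptor for retinol-binding protein, had 0.66 (SE 0.22), with means of -3.01 in STL livers and -3.66 in control livers, which did not overlap. Of 14 alcohol dehydrogenases, carbonyl reductases and aldehyde oxidases 9 were higher, 5 lower and 0 called (5 with an unadjusted limma p under 0.05). Dcxr, a xylulose reductase, had 0.52 (SE 0.17). Aox4, an aldehyde oxidase, was well above background on 1 of 4 STL and 3 of 4 control arrays, with values of -6.42 to -3.96 in STL livers and -4.52 to -2.60 in control livers. Its log2 difference depended on the background correction, at -2.15 as processed here and -0.23 with normexp, so that its size is not settled.

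The genes whose profile over the 7 samples was most like that of a member, by the smallest root mean square difference between centred log2 values, were taken for 4 members. For Aldh3a1 they were Slc7a11 at 0.40, Dnaaf1 at 0.66 and Epdr1 at 0.73. For Akr7a3 they were LOC100912649, Kifc3 and Inhbb, each at 0.21 to 0.22. Epdr1 and Inhbb were well above background on 1 of 4 STL arrays, and Dnaaf1 and LOC100912649 on 3 of 4. Some of the STL values behind these likenesses are therefore at background. Over the other settings the log2 difference was -3.74 to -1.37 for Epdr1 and -1.92 to -0.35 for Inhbb. For Aldh1a1 they were Myh14, LOC102546977 and EV767341, at 0.11 to 0.18. For Akr1b8 they were the chromosome 6 probe shown above, at 0.16, another transcript without a symbol, at 0.34, and a probe filed under a transcript identifier that the files describe as a predicted Aldh1a7, at 0.38. The Aldh1a7 values given above come from a different probe.

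RefSeq promoters (250 bases before to 50 after the start, GRCr8) were found for 8 of the 10 members, not for Aldh3a1 and Aldh2. They were searched on both strands for TGACNNNGC, the core of the antioxidant response element, found in 12.1% of 33469 promoters, and for GCGTG, the core of the dioxin response element that AhR binds, found in 29.7%. TGACNNNGC was in 1 of the 8, Aldh1a2, and GCGTG in 5, Aldh3a2, Aldh1a2, Akr7a2, Akr7a3 and Akr1b10. The promoters of Aldh3a2, with 2 matches, and of Akr7a3, with 1, are printed with GCGTG in capitals, and that of Akr1b8 held neither motif.
Aldh3a2, chr10:46448286-46448585, minus strand: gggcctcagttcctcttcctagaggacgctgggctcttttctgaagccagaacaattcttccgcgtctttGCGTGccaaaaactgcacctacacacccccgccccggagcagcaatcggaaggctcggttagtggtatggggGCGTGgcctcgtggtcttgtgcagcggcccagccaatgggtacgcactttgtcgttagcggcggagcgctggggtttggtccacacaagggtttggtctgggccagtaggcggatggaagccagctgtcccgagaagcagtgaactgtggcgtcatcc
Akr7a3, chr5:156876471-156876770, plus strand: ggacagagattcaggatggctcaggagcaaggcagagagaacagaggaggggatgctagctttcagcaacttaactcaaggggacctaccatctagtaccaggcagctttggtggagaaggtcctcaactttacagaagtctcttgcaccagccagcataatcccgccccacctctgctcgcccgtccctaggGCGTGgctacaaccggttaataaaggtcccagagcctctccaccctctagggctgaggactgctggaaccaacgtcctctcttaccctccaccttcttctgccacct
In Aldh3a2 the matches began at -180 and -108 from the start, and in Akr7a3 at -57. A match is a run of letters and not a shown binding site.

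**Figure D5:**
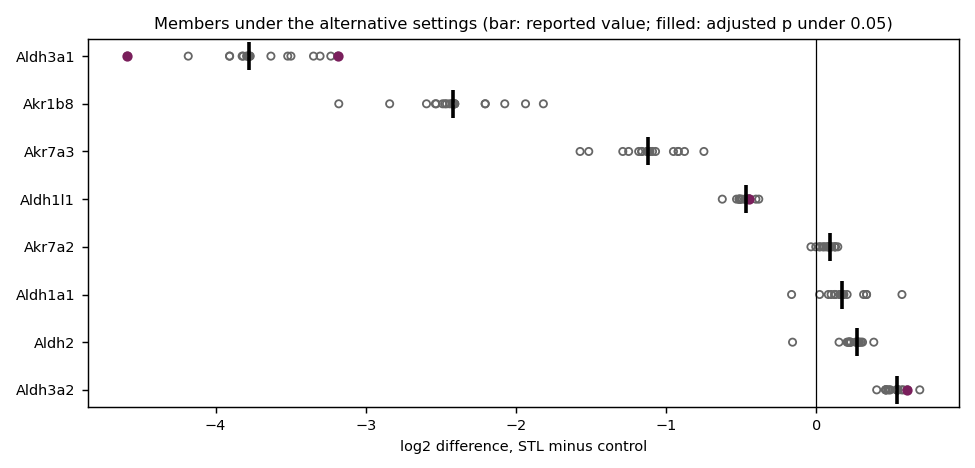
Log2 difference, STL minus control, of the 8 tested genes with the reported setting (bar) and the alternative settings (circles); filled circles have an adjusted p under 0.05. Aldh3a1, at its named probe, stays between -4.59 and -3.19 and Akr1b8 between -3.18 and -1.82. Aldh1a1, Aldh2 and Akr7a2 lie on both sides of 0.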

How the data were processed

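The 8 deposited scanner files hold spot intensity from Agilent Feature Extraction, version 11.5.1.1 per the file headers and 10.7 per the submitters' processing notes, from 1 slide with 1 scan time. The authors' deposited series table is also intensity, on a linear scale, and was used as an alternative. Its columns matched the scanner files of the labelled group, but 6 of 8 matched a different rat of that group than the label. Each array has 62976 spots, of which 58717 are no controls, and 45598 different probes. Spots that the software marked as non-uniform or as outliers were dropped. Spots of a probe were averaged after log2 and subtraction of the 75th percentile, and the brightest probe stood for a name. Control 1 and 2 were averaged. Groups of 4 STL and 3 control samples were tested by limma (version 3.58.1, R 4.3.3; lmFit, eBayes with intensity trend, two-sided, Benjamini-Hochberg, threshold 0.05), and the code was tested on simulated data. The labels do not say more of the replicates than that the rats were different, so p-values measure the spread between these samples. The members and lists were chosen with earlier results of these data known. The text names all members, the 2 genes with the smallest p of each pathway list described, regulators, and the 3 names most like each of 4 members. The single cell type markers given, overlapping probes and gene pairs were chosen after values were seen. Python 3.11.15 and pandas 2.3.3 read the files.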

Additional observations from a re-analysis of the deposited data

How the results depend on the processing

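The comparison was repeated under 22 other settings, 21 of them planned and 1, array weights by REML, chosen after seeing the data. The count of names past the threshold, 1 as reported, was 21 with all 8 arrays as samples, 38 with array weights and 1575 with array weights by REML. Leaving out samples gave 1 to 216 names, 216 without control 1 and 2, 45 without STL 6 and 3 without control 3. Members past the threshold were 0 as reported, 3 with array weights by REML (Aldh3a1, Aldh3a2 and Aldh1l1, limma adjusted p 0.0400, 0.0365 and 0.0475) and 0 to 1 over the settings that leave out samples, with Aldh3a1 past it without STL 6. On the log2 scale Aldh3a1 stayed between -4.59 and -3.19 at its named probe, and between -2.46 and -1.69 at the unnamed one. Akr1b8 stayed between -3.18 and -1.82, and Akr7a3 between -1.57 and -0.75. Signs turned for Aldh1a1 (-0.17 without control 1 and 2), Aldh2 (-0.16 with quantile normalization), Akr7a2 (-0.037 with quantile normalization, -0.0048 with REML weights), Nfe2l2 (0.0010 without STL 6), Myh14 (-0.26 without control 1 and 2), LOC102546977 (-0.210 without control 1 and 2), EV767341 (-0.206 without control 1 and 2, -0.0126 with REML weights, -0.0132 without STL 5 and -0.0132 to 0.29 over all settings that leave out 1 array) and Ahr (0.11 with normexp, 0.059 without STL 5 and 0.15 without control 3, with -0.29 to 0.15 over the settings that leave out samples); the cause was not tested. Over the members 4 values passed the threshold that did not as reported. The number of arrays, and for Aldh1a2 and Akr1b10 the signal over background, limits the precision. STL and control rats share no replicate number, so no number pairs them, and with the slide column, which holds 1 array of each group, as a block over all 8 arrays 1 name and 0 members passed.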
